A study of Mus musculus and Ictidomys tridecemlineatus with 36 samples.

Results

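The nuclear factor I (NFI) family in mouse consists of 4 genes, *Nfia*, *Nfib*, *Nfic* and *Nfix*, out of 21938 protein-coding genes of the GENCODE M21 annotation on GRCm38. They were chosen as named members of the family, not by any measured value, though earlier results of these data were known. All 4 were found. Their windows, the gene body plus 20 kb on each side, held 301 of the 246656 peaks in the mouse CUT&RUN lists. NFI proteins are transcription factors (TFs) that bind DNA as dimers, typically at the palindrome formed by TTGGC and GCCAA with a short spacer. In the developing nervous system they are known for roles in gliogenesis and in the switch of progenitors to late fates. In the retina they are regulators of late-stage retinal progenitor cells (RPCs), where they promote the exit from the cell cycle and the formation of Müller glia and bipolar cells.

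CUT&RUN releases and sequences the DNA around an antibody bound to chromatin. The lists described here come from P2 mouse retina. They cover H3K4me3, a mark of promoters, H3K27ac, a mark of active promoters and enhancers, and H3K4me1, a mark of active and poised enhancers. They also cover 2 TFs, Otx2, of photoreceptor and bipolar precursors, and Neurod1, of photoreceptor and amacrine development. Every target had 2 biological replicates, each a pool of the retinas of 3 mice. The labels give 2 libraries for each histone mark and for the IgG control, 4 for Neurod1 and 8 for Otx2. For Otx2, 4 libraries used an R&D Systems antibody and 4 an Atlas antibody. The further libraries of the factors are technical replicates or the other antibody on the same 2 biological replicates, not more pools. Lists from P5 13LGS retina, the other condition of the study, were not used here. No genotype, treatment or sorted cell type distinguishes the samples, so the comparisons are between targets, between genes and between start sites. Every value is for whole retina, where a peak in few cells and a weak peak in many cells cannot be told apart.

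The authors called peaks jointly on all libraries of a target, so each peak has 1 fold enrichment over IgG and 1 q-value. There was no spread between replicates, no test was possible, and read depth is unknown. The lists hold 14069 peaks for H3K4me3, 62930 for H3K27ac, 135798 for H3K4me1, 29115 for Otx2 and 4744 for Neurod1. As a check of the tissue, H3K4me3 lay within 1 kb of a transcription start site (TSS) of 4 of 4 progenitor markers, 5 of 6 photoreceptor markers and 3 of 3 Müller glia markers, against 1 of 4 for pigment epithelium, 0 of 3 for endothelium, 0 of 3 for microglia, 0 of 2 for astrocytes and 0 of 3 for tissues outside the eye.

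All 4 NFI genes had H3K4me3, H3K4me1 and Otx2 within 1 kb of a TSS, whereas *Nfib*, *Nfic* and *Nfix* had H3K27ac there and *Nfic* alone had Neurod1. H3K4me3 was present at a TSS of 56.0% of all protein-coding genes, so its presence at all members is a common state. The share of all genes was 22.6% for H3K27ac, 63.6% for H3K4me1, 51.0% for Otx2 and 5.76% for Neurod1. Among the 12289 genes with H3K4me3 at a TSS, which are the closer comparison, 37.1% also had H3K27ac, 91.9% had H3K4me1, 86.4% had Otx2 and 9.46% had Neurod1. With 4 genes, H3K4me1 and Otx2 at every member is what most such genes show, and H3K27ac at 3 of 4 compares with a share of 37.1%.

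The 4 genes differ greatly in size and surroundings. *Nfib* (ENSMUSG00000008575.17) runs over 415.6 kb of the minus strand at chr4:82290173-82705750, a length that 1.49% of genes reach. *Nfia* (ENSMUSG00000028565.18) covers 346.1 kb of the plus strand at chr4:97772734-98118874. *Nfix* (ENSMUSG00000001911.16) covers 100.5 kb of the minus strand at chr8:84699876-84800344. *Nfic* (ENSMUSG00000055053.18) is the shortest, with 59.5 kb of the minus strand at chr10:81396186-81455635, and its window holds 6 other protein-coding genes, among them *Fzr1*, *Dohh* and *Celf5*. The *Nfib* window holds no other protein-coding gene.

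**Figure D1:**
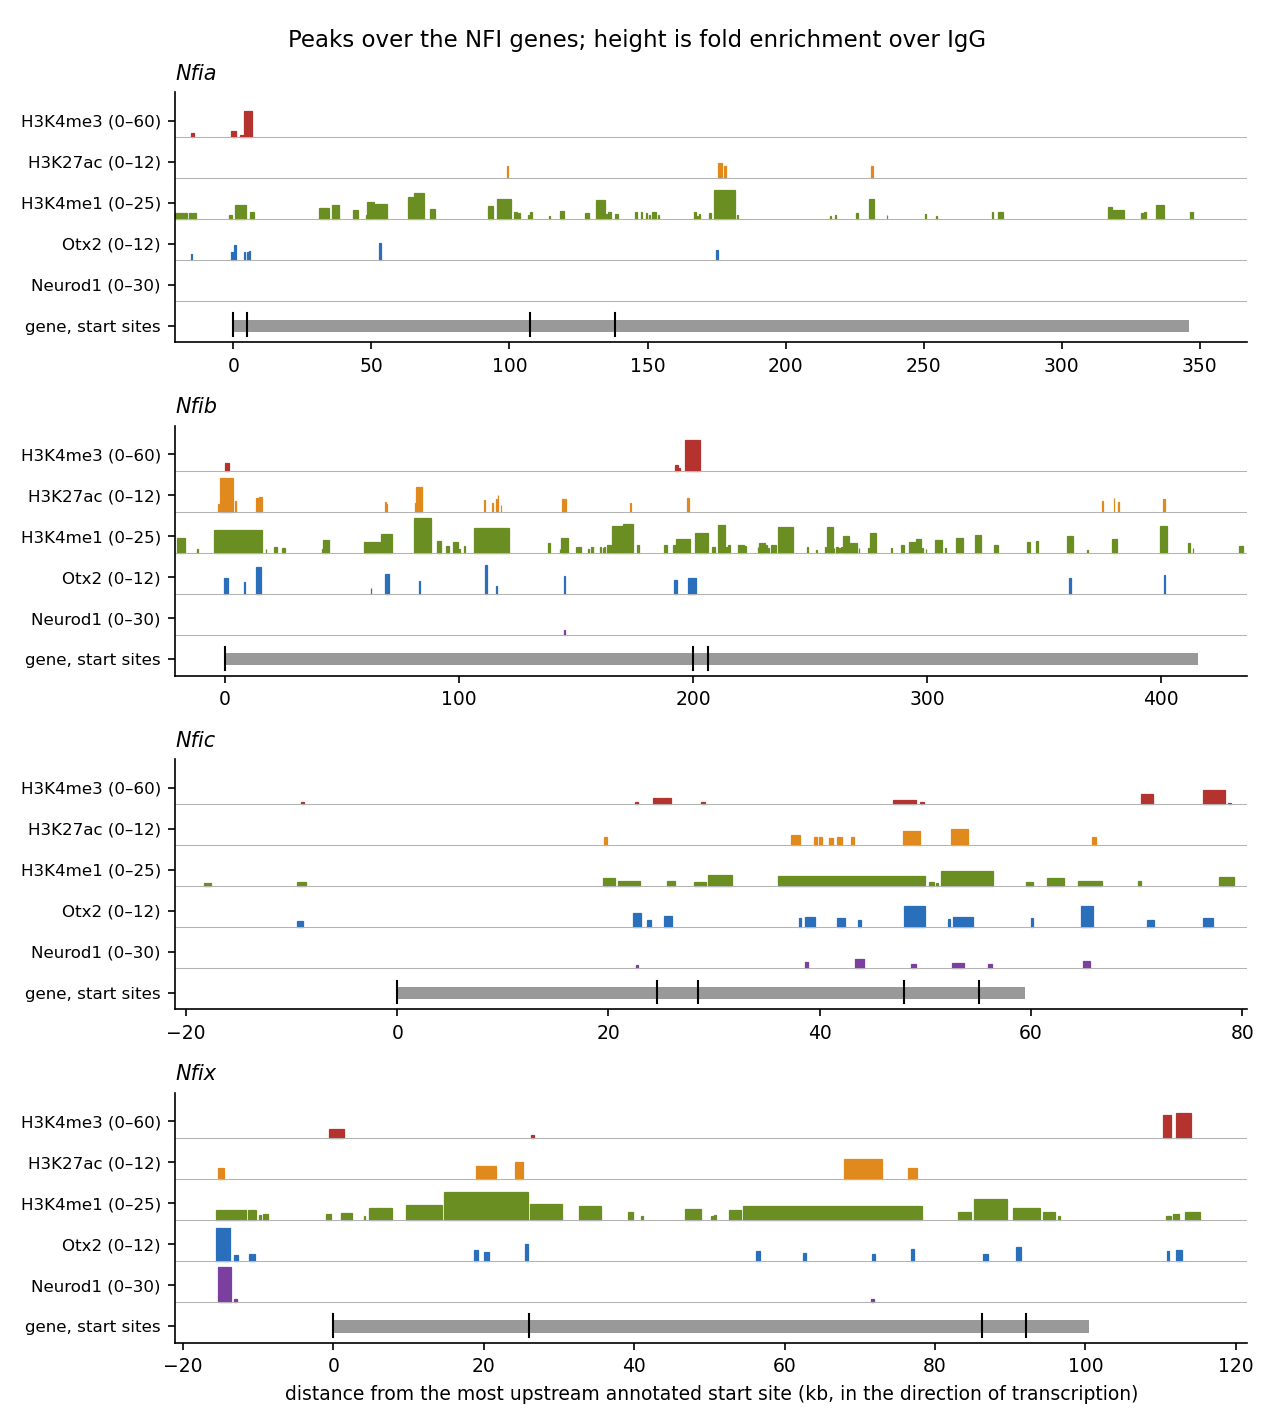
Peaks in the windows of the 4 NFI genes, plotted by distance in kb from the most upstream GENCODE start site in the direction of transcription. Bar width is the peak, bar height is fold enrichment over IgG on the scale given for each target, the grey bar is the gene and black ticks are start sites. H3K4me1 extends along each gene, H3K4me3 is restricted to few positions, and the Neurod1 peak of 28.1-fold lies upstream of *Nfix*.

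Start sites within 1 kb of each other were taken as 1 site, which gave 16 sites, numbered from upstream to downstream in each gene. H3K4me3 was within 1 kb of 9 of them, H3K4me1 of 15, Otx2 of 10, H3K27ac of 3 and Neurod1 of 2. Of the 9 sites with H3K4me3, 7 had Otx2, 3 had H3K27ac and 1 had Neurod1.

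At *Nfia*, a regulator of the onset of gliogenesis, H3K4me3 marked the first and the second site and no other. The second site, where 5 transcripts start between chr4:97777608-97777834, had a fold of 41.8, a value reached by 5.80% of H3K4me3 peaks. Another gene, *E130114P18Rik*, also starts within 1 kb of the second site, so peaks there cannot be assigned to *Nfia* alone. The first site, at position 97772734, had 10.3. Otx2 reached 5.05-fold at the first site and 2.89-fold at the second, so the order of the sites was opposite for the mark and the factor. H3K27ac was absent within 1 kb of every GENCODE *Nfia* site and also within 2 kb. The 2 sites further downstream carried H3K4me1 alone, at 4.55-fold and 3.65-fold.

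At *Nfib*, H3K4me3 also differed between alternative start sites, which here lie about 200 kb apart. The second site, shared by 10 transcripts at chr4:82505308-82505779, had 50.4-fold H3K4me3 over a peak of 6398 bp, a width that 0.405% of H3K4me3 peaks reach. The first site, the start of a single transcript at position 82705750, had 12.4-fold H3K4me3. H3K27ac showed the reverse order. At the first site it reached 10.8-fold over 5598 bp, a fold that 0.358% of H3K27ac peaks reach, inside an H3K4me1 peak of 15.1-fold and 20683 bp. At the second site no H3K27ac peak lay within 1 kb, although a peak of 4.30-fold at chr4:82507618-82508360 lay within 2 kb, beside the start of the non-coding gene *Gm11266*. Otx2 was similar at both sites, with 5.21-fold at the first and 5.07-fold at the second.

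At *Nfic*, the family member with the most start sites, H3K4me3 was weaker. Its highest value was 10.5-fold at the second site, at position 81431005, followed by 6.43-fold at site 4 and 3.08-fold at site 3, where 3 transcripts start. All of these values are below the list median of 13.5-fold. Site 4, at position 81407641, was the only site of the family with peaks of all 5 targets. It had H3K27ac at 4.49-fold, H3K4me1 at 7.27-fold, Otx2 at 7.0-fold and Neurod1 at 3.19-fold. The most upstream site had no peak of any target.

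At *Nfix*, a family member known for roles in neural progenitor differentiation, the most upstream site had 13.4-fold H3K4me3 with neither H3K27ac nor Otx2. The second site, at chr8:84773396-84774369, had 4.15-fold H3K4me3, 5.31-fold H3K27ac and 5.59-fold Otx2. An H3K4me1 peak of 19.1-fold and 11111 bp began within 1 kb upstream of this site, and did not cover its starts. The 2 sites further downstream had H3K4me1 and Otx2 without H3K4me3.

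**Figure D2:**
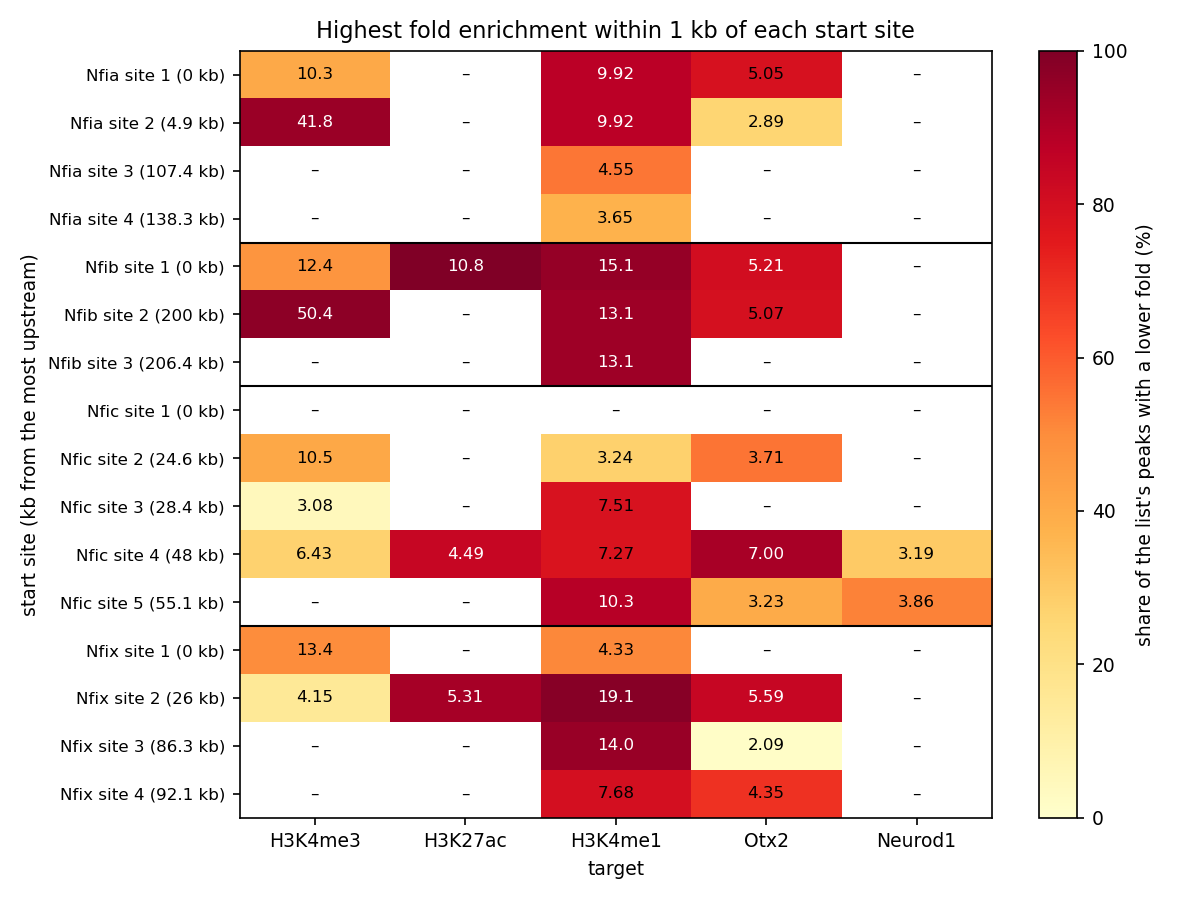
Highest fold enrichment over IgG of a peak within 1 kb of each of the 16 start sites, with a dash where there is no peak. Rows are start sites with their distance from the most upstream one in kb, columns are targets, and colour is the share of that target's list with a lower fold. The H3K27ac values of 10.8, 4.49 and 5.31 stand in rows where H3K4me3 is 12.4, 6.43 and 4.15, not in the rows with the highest H3K4me3 of each gene.

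In each of the 4 genes, then, the site with the highest H3K4me3 had no H3K27ac within 1 kb, and in the 3 genes with H3K27ac at a TSS it lay at a site of lower H3K4me3. Over the 4561 protein-coding genes with both marks at a TSS, the site of highest H3K4me3 lacked H3K27ac in 24.1%. A gene with a single site cannot lack it by this rule, and any such genes are counted in the 4561. Every NFI gene has several sites, and the share over genes with several sites was not computed. This comparison was chosen after the members' values had been seen, and 3 genes cannot set their share apart from that background. The count falls to 2 of these 3 genes when 2 kb is allowed, through the peak beside *Gm11266*.

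The RefSeq annotation places further starts in the loci. For *Nfia* it gives a start at position 97581943, 190791 bp away from the nearest GENCODE start and outside the window, with 25.7-fold H3K4me3, 4.19-fold H3K27ac and 23.8-fold H3K4me1. For *Nfix* it gives several starts between chr8:84775828-84781705, inside the 19.1-fold H3K4me1 peak and near H3K27ac peaks of 5.31-fold and 4.18-fold, with no H3K4me3. For *Nfib* it gives a start at 82506751 that lies within 1 kb of the 4.30-fold H3K27ac peak. Thus which NFI genes count as carrying H3K27ac at a promoter depends on the annotation, since *Nfia* joins the list with RefSeq starts and *Nfic* leaves it.

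Over the whole windows, start sites included, H3K4me1 had 178 of the 301 peaks, H3K27ac 40, H3K4me3 21, Otx2 51 and Neurod1 11. H3K4me1 also made up 135798 of the 246656 peaks in the lists, so its lead in counts is not particular to the family. Windows with at least 1 peak are common, at 81.2% of all genes for H3K4me1, 66.6% for H3K4me3, 53.7% for H3K27ac, 69.9% for Otx2 and 19.4% for Neurod1, and longer windows hold more peaks. Peaks per 100 kb of window were therefore compared. The median density of the 4 genes was 16.82 for H3K4me1 against 6.16 for all protein-coding genes, 4.08 against 1.06 for H3K27ac, 6.77 against 1.86 for Otx2, 1.94 against 1.35 for H3K4me3 and 1.18 against 0.00 for Neurod1. Among the genes with H3K4me3 at a TSS the medians were 8.56 for H3K4me1, 2.18 for H3K27ac, 2.95 for Otx2, 2.20 for H3K4me3 and 0.00 for Neurod1, so for H3K4me3 the family lay below that median.

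H3K4me1 was the mark in which all 4 genes stood high. Its density was 19.22 at *Nfix*, 17.56 at *Nfib*, 16.09 at *Nfic* and 14.24 at *Nfia*, values reached by 4.54%, 6.70%, 9.22% and 13.2% of genes. With the gene body alone the densities were 18.91, 18.53, 15.14 and 14.44, but they were reached by more genes, at 16.9%, 17.5%, 23.0% and 24.3%. The order turned when peaks within 500 bp were merged, with 12.95 at *Nfib*, 11.65 at *Nfia*, 11.39 at *Nfix* and 11.06 at *Nfic*. These were reached by 8.74%, 12.5%, 13.5% and 14.7% of genes. Measured as bases, H3K4me1 covered 55.8% of the *Nfix* window, a share that 0.255% of genes reach. It covered 37.2% at *Nfib*, 35.1% at *Nfic* and 22.1% at *Nfia*, and the median gene had 5.95%. The widest peak of the family spanned 23806 bp inside *Nfix* at chr8:84722142-84745947, at 9.10-fold.

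The other targets separated the 4 genes. *Nfic* was the densest for H3K27ac with 10.06 peaks per 100 kb, for Otx2 with 15.08, for Neurod1 with 7.04 and for H3K4me3 with 9.05. The H3K27ac order turned with a −log10 q of 5 or more, where *Nfix* had 3.56 and *Nfic* 3.02, and by bases covered, where *Nfix* had 7.80% of its window and *Nfic* 6.47%. The Otx2 order turned with 50 kb on each side, where *Nfix* had 11.97 and *Nfic* 11.29. For Neurod1 the *Nfic* density was reached by 0.337% of genes and for Otx2 by 0.834%, and with the gene body alone by 1.45% and 8.18%. *Nfix* followed for Otx2 with 10.68, reached by 3.15% of genes, or 15.9% with the gene body alone. *Nfib* had an H3K27ac density of 4.61, reached by 19.2% of genes, and an Otx2 density of 2.85. *Nfia* lay near the median of all genes for both, with 1.04 for H3K27ac and 2.07 for Otx2, and its window held no Neurod1 peak. Among genes with H3K4me3 at a TSS, 69.2% reached the *Nfia* density for H3K27ac and 63.8% for Otx2. For *Nfib* these shares were 28.2% and 51.2%. *Nfic* has the shortest window and the most neighbouring starts, so some of its peaks belong to other promoters: the 23.0-fold H3K4me3 peak is at *Fzr1* and the 16.1-fold peak at *Dohh*. The same holds at *Nfix* for the 40.3-fold and 36.2-fold H3K4me3 peaks at *Nacc1* and *Trmt1*. Over the family, 5 of 21 H3K4me3 peaks, 7 of 40 H3K27ac, 16 of 178 H3K4me1, 10 of 51 Otx2 and 2 of 11 Neurod1 peaks lay within 1 kb of another gene's TSS and not of a member's. With peaks near starts of both included, these counts were 8, 7, 20, 13 and 2.

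**Figure D3:**
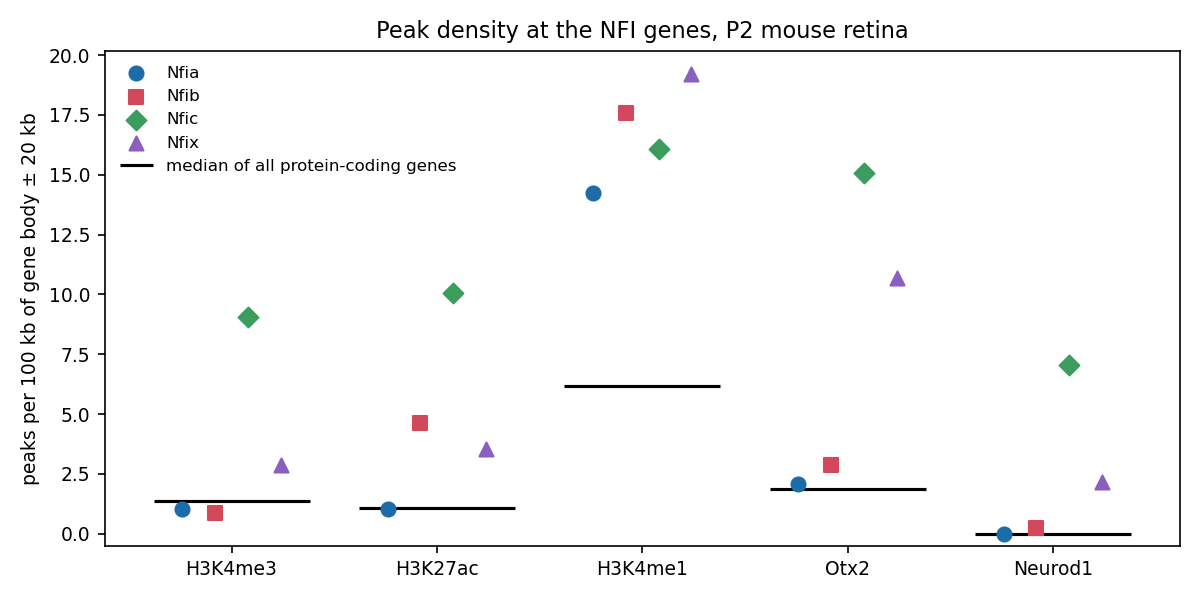
Peaks per 100 kb of gene body plus 20 kb on each side, by target, for each NFI gene. The horizontal bars are medians over 21938 protein-coding genes. All 4 genes lie above the bar for H3K4me1, where the median is 6.16, and *Nfic* is highest for H3K4me3, Otx2, Neurod1 and, by this count of all peaks, H3K27ac. The order of *Nfic* and *Nfix* turned for H3K27ac by bases covered and with a −log10 q of 5 or more, and for Otx2 with 50 kb on each side.

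The distance limits set these counts. Peaks within 500 bp, 1 kb and 2 kb of a member's TSS numbered 9, 9 and 12 for H3K4me3, 2, 3 and 5 for H3K27ac, and 8, 14 and 15 for Otx2. For Neurod1 they numbered 0, 2 and 4. The gene bodies alone held 37 of the 40 H3K27ac peaks and 155 of the 178 H3K4me1 peaks.

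Of the 40 H3K27ac summits, 37 lay in introns, and the intronic share of the whole list was not computed. The fold values ran from 2.31 to 10.8, with a median of 3.71 against 3.36 for the list, and the median width was 609 bp against 432 bp. *Nfib* held 21 of the peaks. The highest away from a start site was 7.88-fold at chr4:82621495-82623953, in an intron, a fold that 1.77% of the list reach. It lay under the highest H3K4me1 peak of the family, 23.5-fold at chr4:82617672-82624812, and overlapped an Otx2 peak of 4.07-fold.

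*Nfix* had 5 H3K27ac peaks, of 3.46, 3.59, 4.18, 5.31 and 6.53-fold. The last spanned 5090 bp at chr8:84727407-84732496, in an intron within the widest H3K4me1 peak. *Nfia* had 4, of 3.83, 3.86, 3.88 and 4.83-fold, all intronic. The 4.83-fold and 3.83-fold peaks lay together under a 19.7-fold H3K4me1 peak at chr4:97946715-97954300. *Nfic* had 10, of which 8 were below the list median, and its highest was 5.37-fold at chr10:81401574-81403233 with Otx2 at 3.23-fold and Neurod1 at 4.33-fold.

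Of the 40 H3K27ac peaks, 22 overlapped an Otx2 peak, or 55.0% (95% Wilson interval 39.8% to 69.3%), against 16.6% of the whole list. With Neurod1 the share was 12.5% (5.46% to 26.1%) against 3.90%, and with H3K4me1 it was 95.0% (83.5% to 98.6%) against 58.9%. With H3K4me3 it was 7.50%, next to 7.57% of the list. In the other direction, 19 of the 178 H3K4me1 peaks overlapped H3K27ac, or 10.7% (6.94% to 16.1%), against 21.5% of all H3K4me1 peaks. So most of the H3K4me1 in these genes lay outside H3K27ac, while the few acetylated positions often had Otx2. The intervals cover counting error only, and peaks of 1 gene are not independent.

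**Figure D4:**
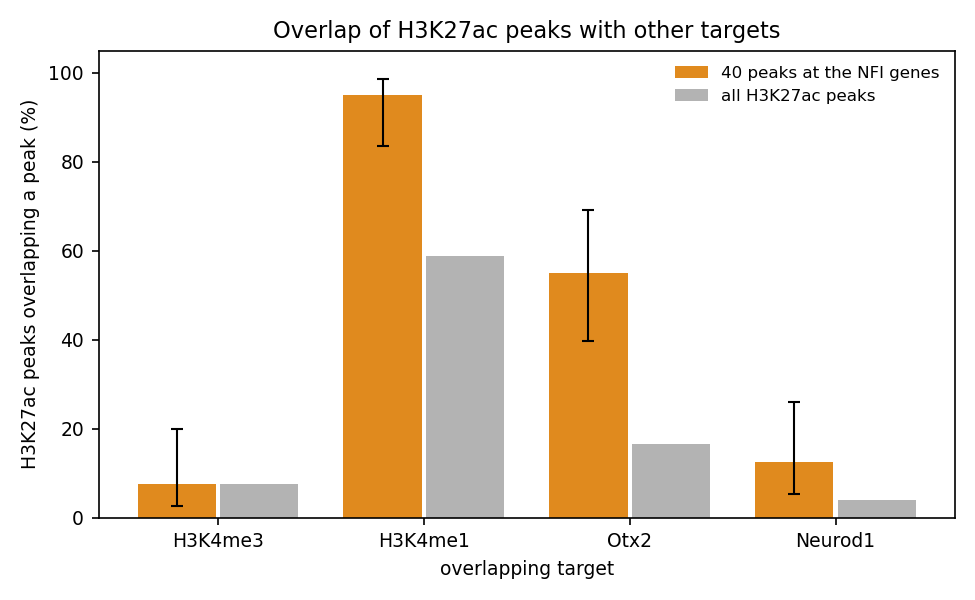
Share of H3K27ac peaks, in percent, that overlap a peak of another target by at least 1 bp, for the 40 peaks at the NFI genes (orange) and the 62930 peaks of the list (grey). Error bars are 95% Wilson intervals. The orange bar for Otx2 is at 55.0% and the grey bar at 16.6%, and for H3K4me3 the bars are at 7.50% and 7.57%.

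Otx2, a homeodomain factor of photoreceptor and bipolar precursors, had 51 peaks in the windows. They were 8 at *Nfia*, 13 at *Nfib*, 15 at *Nfic* and 15 at *Nfix*. Each peak was classed by the marks it overlapped, as promoter with H3K4me3, otherwise as active enhancer with H3K27ac, otherwise as poised enhancer with H3K4me1. By this rule 17 were promoter peaks (33.3%, 22.0% to 47.0%), 18 active (35.3%, 23.6% to 49.0%), 15 poised (29.4%, 18.7% to 43.0%) and 1 had no histone peak. The list had 43.3%, 22.6%, 26.9% and 7.20%. The genes differed in this makeup. At *Nfia* 6 of 8 were promoter peaks, at *Nfib* 7 of 13 were active, and at *Nfix* 8 of 15 were poised. The promoter class takes in starts of other genes. These include *Nacc1* and *Trmt1* at *Nfix* (3.52 and 3.17-fold), *Fzr1* and *Dohh* at *Nfic* (3.06 and 2.52-fold) and *Gm12676* at *Nfia* (2.13-fold).

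*Nfib* held the strongest intragenic Otx2 peaks. They were 9.22-fold at chr4:82593590-82594672 and 8.71-fold at chr4:82690130-82692156, values reached by 3.41% and 4.22% of the list. *Nfib* also had 6.36, 6.21 and 5.69-fold at 3 other intronic positions, below the 7.0-fold peak in an *Nfic* intron. All of these *Nfib* peaks overlapped H3K27ac. Of the 8 *Nfia* peaks, 6 overlapped H3K4me3, at 2.13, 2.65, 2.78, 2.78, 2.89 and 5.05-fold. The other 2 were 5.48-fold at chr4:97825548-97826243, where H3K4me1 was the one mark, and 3.35-fold at the acetylated intronic positions above. At *Nfic* the highest were 7.0-fold at start site 4 and 6.98-fold at chr10:81389794-81390871, beside *Gm48552*, followed by 4.65, 3.71 and 3.42-fold. At *Nfix* the highest value, 10.5-fold, lay upstream of the gene, and the next were 5.59-fold at the second start site and 4.35, 3.82 and 3.52-fold.

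Neurod1, a basic helix-loop-helix factor of photoreceptor and amacrine development, had 11 peaks, of which 10 also overlapped Otx2 (90.9%, 62.3% to 98.4%), against 82.1% of its list. *Nfic* had 7, with folds of 2.79, 3.19, 3.86, 4.33, 5.06, 5.63 and 7.32. *Nfib* had 1, of 3.95-fold, in an intron with Otx2 at 5.69-fold and H3K27ac at 4.25-fold. *Nfix* had 3, of 2.20, 2.47 and 28.1-fold. By class, 2 were promoter, 4 active and 5 poised peaks, or 18.2%, 36.4% and 45.5%, against 25.6%, 40.1% and 28.7% of the list.

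The 28.1-fold peak at chr8:84813997-84815708 was by far the highest Neurod1 value of the family, and 0.211% of the list reach it. An Otx2 peak of 10.5-fold, reached by 2.24% of that list, had its summit at the same base, position 84814779. H3K27ac at 3.59-fold and H3K4me1 at 6.60-fold overlapped it, and H3K4me3 did not. The summit lay between genes, 14.4 kb upstream of the nearest *Nfix* start, next to the 3′ end of *Dand5*. Which gene it acts on was not tested.

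**Figure D5:**
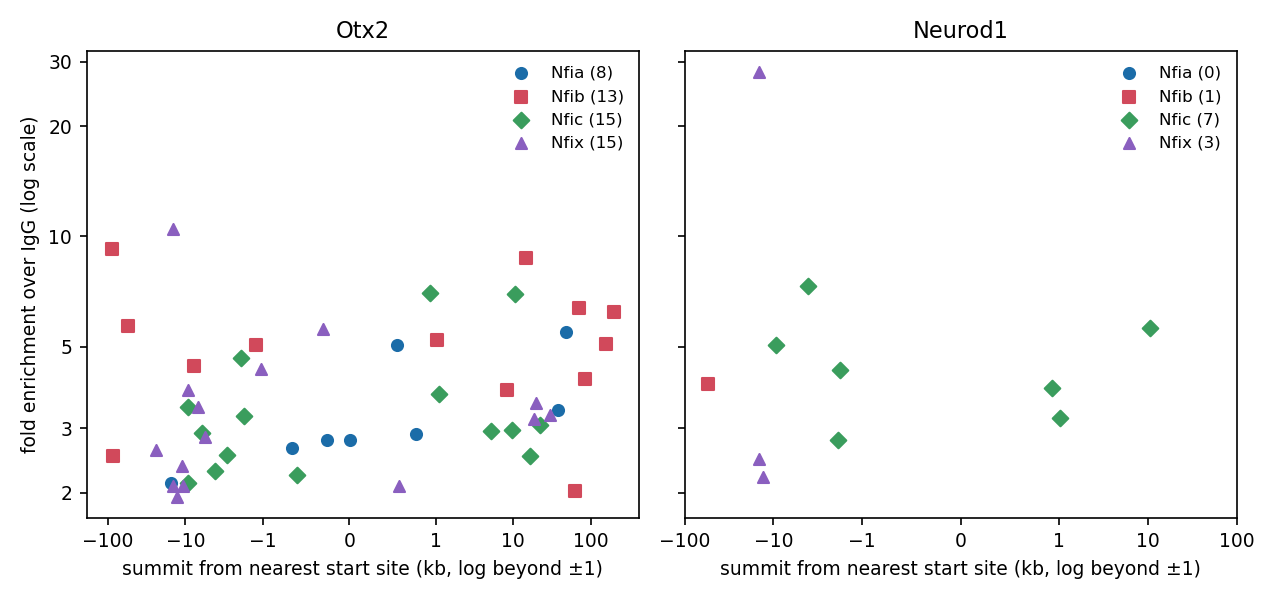
Fold enrichment over IgG (log axis) of each Otx2 and Neurod1 peak in the windows, against the distance of its summit from the nearest start site of the same gene in kb (negative is upstream, linear within 1 kb and log beyond). Colours and symbols are genes, with the number of peaks in brackets. One Neurod1 peak upstream of *Nfix* stands at 28.1-fold, above the others, which run from 2.20 to 7.32.

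The sequences under 4 of these summits are shown because they are the highest-fold factor positions in or near *Nfix*, *Nfib* and *Nfic* and the only Neurod1 position in *Nfib*. Each is the plus strand of GRCm38, 299 bases centred on the summit, with capitals for TAATCC (a core bound by Otx2), CAGATG (an E-box bound by Neurod1) and TTGGCA (part of an NFI site) on either strand. They lie at chr8:84814630-84814928 for *Nfix*, chr4:82593931-82594229 for the *Nfib* Otx2 peak, chr10:81411589-81411887 for *Nfic* and chr4:82560404-82560702 for the *Nfib* Neurod1 peak, the first between genes and the others in introns.
Nfix Neurod1 and Otx2: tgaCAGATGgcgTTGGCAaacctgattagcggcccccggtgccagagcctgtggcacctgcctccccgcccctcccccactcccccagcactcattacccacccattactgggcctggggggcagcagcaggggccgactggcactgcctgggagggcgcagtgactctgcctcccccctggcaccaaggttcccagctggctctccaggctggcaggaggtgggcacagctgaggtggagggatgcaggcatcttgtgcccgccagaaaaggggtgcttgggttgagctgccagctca
Nfib Otx2: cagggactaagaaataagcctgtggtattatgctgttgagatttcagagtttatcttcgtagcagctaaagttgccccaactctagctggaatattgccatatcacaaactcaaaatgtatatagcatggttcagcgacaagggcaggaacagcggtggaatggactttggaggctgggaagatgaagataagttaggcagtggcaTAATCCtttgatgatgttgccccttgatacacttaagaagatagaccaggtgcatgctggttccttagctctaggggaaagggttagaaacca
Nfic Neurod1: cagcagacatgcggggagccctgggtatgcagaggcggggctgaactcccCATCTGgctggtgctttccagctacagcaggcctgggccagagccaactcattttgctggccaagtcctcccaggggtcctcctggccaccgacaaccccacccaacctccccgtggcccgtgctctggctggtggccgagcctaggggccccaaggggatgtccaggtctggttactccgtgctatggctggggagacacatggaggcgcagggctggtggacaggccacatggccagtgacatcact
Nfib Neurod1: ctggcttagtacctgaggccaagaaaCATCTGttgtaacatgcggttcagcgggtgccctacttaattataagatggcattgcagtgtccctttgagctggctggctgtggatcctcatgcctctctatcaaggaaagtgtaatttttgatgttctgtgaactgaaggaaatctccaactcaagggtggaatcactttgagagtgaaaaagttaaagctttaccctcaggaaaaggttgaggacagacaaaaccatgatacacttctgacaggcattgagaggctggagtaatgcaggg

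In the *Nfix* sequence CAGATG and TTGGCA stand near the left edge, 141 bp and 132 bp from the summit, and 66.9% of the bases are G or C. The strongest *Nfib* Otx2 position has TAATCC 57 bp from its summit. The *Nfic* Neurod1 position has CAGATG, read on the minus strand, 94 bp away. The *Nfib* Neurod1 sequence has CAGATG only outside the 226 bp peak itself. Not shown are the strongest Otx2 positions of *Nfia*, at 5.48-fold, and of *Nfic*, at 7.0-fold. Neither held any of the marked motifs in the 299 bases around its summit. A motif was therefore not present at every top position examined.

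Across the windows of 301 bp centred on summits, TAATCC was present at 9 of 51 Otx2 summits (17.6%, 9.57% to 30.3%), against 18.3% of the list. CAGATG was present at 7 of 11 Neurod1 summits (63.6%, 35.4% to 84.8%), against 52.3%. Both shares had intervals that included the list's value. Within 50 bp of the summit neither factor's own motif occurred at a member peak, and this was rare over the lists too, at 2.45% for Otx2 and 9.53% for Neurod1. TTGGCA was present at 11 of 51 Otx2 summits, or 21.6% (12.5% to 34.6%), against 14.7%, and 6 of the 11 were at *Nfix*. This interval, too, included the list's value. At Neurod1 summits TTGGCA was present at 1 of 11, or 9.09% (1.62% to 37.7%), against 17.5%. These are letter matches on both strands and do not show binding.

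Since NFI proteins bind TTGGC and GCCAA with a spacer of 5 bases between them, complete sites of this form were located in the windows of the NFI genes themselves. There were 5 in 1081.6 kb, or 0.46 per 100 kb (exact Poisson interval 0.15 to 1.08), against 0.058 over the genome, where 1579 were found. The genome value was not matched for genes or base content, and the interval covers counting error only. The *Nfia* window held 3, all in introns and all inside H3K4me1 peaks, of 9.92, 13.7 and 3.85-fold. H3K4me1 covers 22.1% of that window, and 3 sites are too few to set against this share. *Nfib* held 1 in an intron and *Nfic* 1 between genes, neither inside a peak, and *Nfix* held none. No complete site lay within 150 bp of an Otx2, Neurod1 or H3K27ac summit of the family, and such sites were at 0.0687%, 0.0632% and 0.0445% of those lists. The sites are shown on the plus strand of GRCm38 with 20 bases on each side and the 2 arms in capitals, because they are the complete NFI sites at the family's own genes. In order they lie at chr4:97776506-97776520, chr4:97869259-97869273, chr4:97876121-97876135, chr4:82379280-82379294 and chr10:81382146-81382160.
Nfia a: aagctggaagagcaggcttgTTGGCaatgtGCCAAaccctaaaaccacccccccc
Nfia b: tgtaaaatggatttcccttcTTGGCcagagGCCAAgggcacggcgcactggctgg
Nfia c: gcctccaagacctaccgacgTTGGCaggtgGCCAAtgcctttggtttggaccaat
Nfib: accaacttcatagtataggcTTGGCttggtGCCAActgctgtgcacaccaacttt
Nfic: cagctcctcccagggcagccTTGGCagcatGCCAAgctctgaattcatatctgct

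The first of these lay upstream of the second *Nfia* start site, at -1095 bp from its nearest start and just outside its 41.8-fold H3K4me3 peak. No NFI protein was profiled, so occupancy of these sites was not tested.

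The family was last set beside 12 other regulators of late-stage progenitors and glia, such as *Sox9*, *Lhx2*, *Hes1* and *Casz1*, and 12 regulators of early-stage progenitors and early-born neurons, such as *Fgf15*, *Onecut1* and *Lin28b*. H3K4me3 lay at a TSS of 12 of 12 late and 11 of 12 early genes, and H3K27ac at 8 and 4. Over all protein-coding genes the shares were 56.0% for H3K4me3 and 22.6% for H3K27ac. Among genes with H3K4me3 at a TSS, 37.1% had H3K27ac there. Median H3K27ac density per 100 kb was 12.11 for the late list, 4.08 for the NFI genes and 0.08 for the early list. In the same order, Otx2 medians stood at 12.58, 6.77 and 2.63, and H3K4me1 medians at 16.96, 16.82 and 12.69. For H3K4me3 they were 4.73, 1.94 and 1.82, and for Neurod1 1.21, 1.18 and 0.00. By these medians the NFI genes lay between the lists for H3K27ac and Otx2. They were close to the late list for H3K4me1 and Neurod1, and close to the early list for H3K4me3. Within the family the spread was wide, since H3K27ac density ran from 1.04 at *Nfia* to 10.06 at *Nfic*, and within the late list from 0.00 to 31.25. Otx2 density ran from 2.07 at *Nfia* and 2.85 at *Nfib* to 10.68 at *Nfix* and 15.08 at *Nfic*. For Neurod1 it ran from 0.00 at *Nfia* to 7.04 at *Nfic*. Gene length differs between these sets, and its part in the densities was not tested.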

How the data were processed

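CUT&RUN peak lists from P2 mouse retina were used as deposited. The authors trimmed reads, aligned them with Bowtie2, removed duplicates and called peaks with macs2 on the pooled libraries of a target against IgG at a q-value of 0.05. The fold enrichment of a peak is a ratio of pooled signal to IgG, and its significance is a −log10 q-value, both as deposited by the authors and not rescaled. With 1 pooled list per target there was no replicate spread, no test was run, and depth is unknown. Submitters' processing notes also name Trim Galore 0.6.4, cutadapt 3.5, SAMtools 1.12 and deepTools 3.5.1. H3K27me3 and H3K9me3 were not analysed here.

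Python 3.11.15 was used to find overlaps of at least 1 bp (packages pandas 2.3.3, numpy 2.4.6, scipy 1.17.1 and, for plots, matplotlib 3.10.9). On 400 simulated intervals the overlap counts were checked with bedtools 2.31.1, and 0 differed. Starts and gene bodies came from GENCODE M21 and bases from GRCm38. Peaks were to be named if they lay within 1 kb of a member's TSS, had the highest fold of a target in a window, or were Otx2 or Neurod1 peaks (the 5 highest where a window held over 10), and those at start sites are given by the highest fold per site. The members, gene lists and marker lists were chosen with earlier results of these data known. Alternatives were other distances, windows, overlaps and limits on q and fold, merged peaks, bases covered, peaks at other genes' starts left out, other backgrounds and, chosen after seeing the data, RefSeq starts.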

Additional observations from a re-analysis of the deposited data

How the results depend on the processing

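Of 136 recomputed family values, 118 stayed within the limits set for them and 18 moved, and of the single-gene densities 103 stayed and 17 moved. Values counted as staying could still change widely. With a −log10 q of 5 or more, Otx2 window peaks went from 51 to 34 and H3K4me1 window peaks from 178 to 129, and both counted as staying. Window counts of H3K4me3, 21 in the main setting, became 32 with 50 kb on each side and 13 without peaks at other genes' starts, and the genes above the median H3K4me3 density went from 2 to 4 both without those peaks and when bases covered were compared. A limit of 5 on −log10 q lowered the H3K27ac peaks from 40 to 22 and left 11 of 18 active Otx2 peaks. Against genes with H3K4me3 at a TSS, 2 and not 4 genes exceeded the median Otx2 density. With a TSS distance of 500 bp, 0 genes had Neurod1 at a start instead of 1. A fold of at least 2.5 left 9 of 15 poised Otx2 peaks and 0 of 1 without a histone peak, while an overlap of 250 bp raised the latter to 6. Promoter Neurod1 peaks fell from 2 to 1 with the 250 bp overlap and with the q limit, and Neurod1 peaks without a histone peak went from 0 to 1 with that overlap. Within 50 bp of the summit, Otx2 peaks with TAATCC went from 9 to 0 and with TTGGCA from 11 to 3, and Neurod1 peaks with CAGATG from 7 to 0 and with TTGGCA from 1 to 0. The cause of these shifts beyond the settings themselves was not tested.

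No paired analysis was possible because each target has 1 pooled list, and leaving out a replicate was not possible. Pooling also hides any difference between the Otx2 antibodies. Counts are small, neighbouring peaks are not independent, and the peaks carry no assignment to a target gene or cell type.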
